A study of Mus musculus with 2 samples.

Results

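The DNA replication machinery comprises the proteins that mark origins, load and fire the replicative helicase, copy the template, seal the new strands, supply deoxynucleotides and rebuild chromatin behind the fork. The members were named by gene symbol, and all 46 were found among the 46095 genes of the count table. Each of the 46 passed the limit of 10 counts in total over the pair of libraries, as did 17356 genes of the table. The comparison was between 1 library of C3H10 cells transfected with an antisense oligonucleotide (ASO) against MALAT1 and 1 library of C3H10 cells transfected with a negative control (NC) ASO, each at 100 nM and collected at day 6 of differentiation. C3H10 (C3H/10T1/2) is a mouse fibroblast line with adipogenic ability, which the labels assign to strain C57BL/6, and an ASO is a short nucleic acid that pairs with an RNA and directs its cleavage. Both groups carried an ASO, both had been transfected at 70% confluence with RNAiMAX, and both were grown to confluence before an adipogenic cocktail was given for 2 days. Which ASO against MALAT1 had been sequenced was not stated in the sources used here. Neither group had a second library, so no difference below has a replicate check and no test between the groups was possible.

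In dividing cells most replication genes are transcribed as cells pass from G1 into S phase, when E2F transcription factors are released from the retinoblastoma family of repressors. Some members, among them subunits of the origin recognition complex and of the clamp loader, are kept at a steadier level through the cycle. Preadipocytes in culture stop at confluence, divide again for a short time after adipogenic induction and then leave the cycle as they differentiate, and many replication transcripts are low in cells that have left it.

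The libraries held 58147539 counts (NC) and 61653549 counts (ASO MALAT1). Malat1 itself had 170402 counts in the control library and 45396 in the knockdown library, which left 24.7% of the control level. All values below are ratios of counts scaled by trimmed mean of M-values (TMM) factors. CPM is the count per 1000000 of the scaled library total, and the intervals are exact 95% Clopper-Pearson limits that cover counting error only. Mature adipocyte markers were lower in the knockdown library for 11 of the 11 tested (1 more, Lep, had too few counts). Of these, 10 were at least 1.5-fold lower, against 11.9% of all genes tested. Their summed level was 8005 CPM in control cells and 3068 CPM in knockdown cells. Of 13 fibroblast and preadipocyte markers tested, 10 were higher in the knockdown library, against 49.6% of all genes tested, with summed levels of 20139 and 22161 CPM. Dcn (2247 control and 1315 knockdown counts, log2 ratio -0.88) and Lum (1246 and 674, -0.99) were at least 1.5-fold lower, and Col3a1 was at -0.01. Only Cd34, on 19 and 69 counts, was at least 1.5-fold higher, and Dlk1 had 0 counts in both. Of 5 macrophage markers, Ptprc and Adgre1 were at 0 in both libraries, Cd68 had 172 and 119 counts, and Csf1r (3 and 13) and Lyz2 (7 and 25) were higher in the knockdown library, with summed levels of 3.15 and 2.53 CPM. Of 4 skeletal muscle markers, Myod1 and Myog were at 0 and nearly all of the summed 7.80 and 5.05 CPM came from Des (448 and 314 counts). Of 4 endothelial markers, Cdh5 and Kdr had at most 1 count, and Pecam1 (26 and 25) and Tek (23 and 19) were low too, with summed levels of 0.849 and 0.740 CPM. Of 5 osteoblast and chondrocyte markers, Acan was at 0, Sp7 and Bglap had at most 3 counts, and Col2a1 (378 and 692 counts) was 1.70-fold higher in the knockdown library, with summed levels of 6.74 and 11.4 CPM. Whether cells that express any of these markers take part in the differences below was not tested. In bulk RNA, fewer cells of a kind and less RNA per cell cannot be told apart.

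The replication genes were mostly higher in MALAT1-knockdown cells. Of the 46 members, 43 had a higher scaled count in the knockdown library, against 49.6% of all genes tested, although Orc2, Gins3 and Rfc2 turned to just below the control level when the libraries were scaled on reference genes. The counting interval lay wholly above 0 for 41 members (26.7% of all genes tested) and wholly below 0 for 2 members (26.4%). A 1.5-fold higher level was reached by 16 members, against 8.28% of all genes tested, and a 1.5-fold lower level by 0 members, against 11.9%. Scaled on reference genes, 7 members were at least 1.5-fold higher, against 6.06% of all genes tested, and 1 (Cdc45) was at least 1.5-fold lower. Weakly counted genes scatter more, and among the 11919 genes with at least 100 counts in each library 2.28% were at least 1.5-fold higher, 3.96% were at least 1.5-fold lower and 51.5% had a ratio above 0. At a lower limit, a log2 ratio of 0.32, 32 members were higher, against 15.8% of all genes tested and 8.83% of the well-counted ones, and 1 member (Cdc45) was lower, against 20.1% and 11.0%. The median log2 ratio of the members was 0.49, with quartiles of 0.28 and 0.63, beside a median of -0.00 over all genes tested, whose quartiles were -0.23 and 0.18. No member reached a 2-fold difference (0 of 46, against 3.83% of all genes tested and 0.159% of the well-counted ones). The members lay close to the 1.5-fold limit on both sides, since the log2 ratios just inside it were 0.59 for Rfc3, Rfc4 and Pola1, and those just outside it were 0.57 for Lig1, 0.57 for Mcm6 and 0.56 for Gins2. Summed over the members, the level was 1585 CPM in control cells and 2225 CPM in knockdown cells, which is 1.40-fold higher (1.39 to 1.42).

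**Figure D1:**
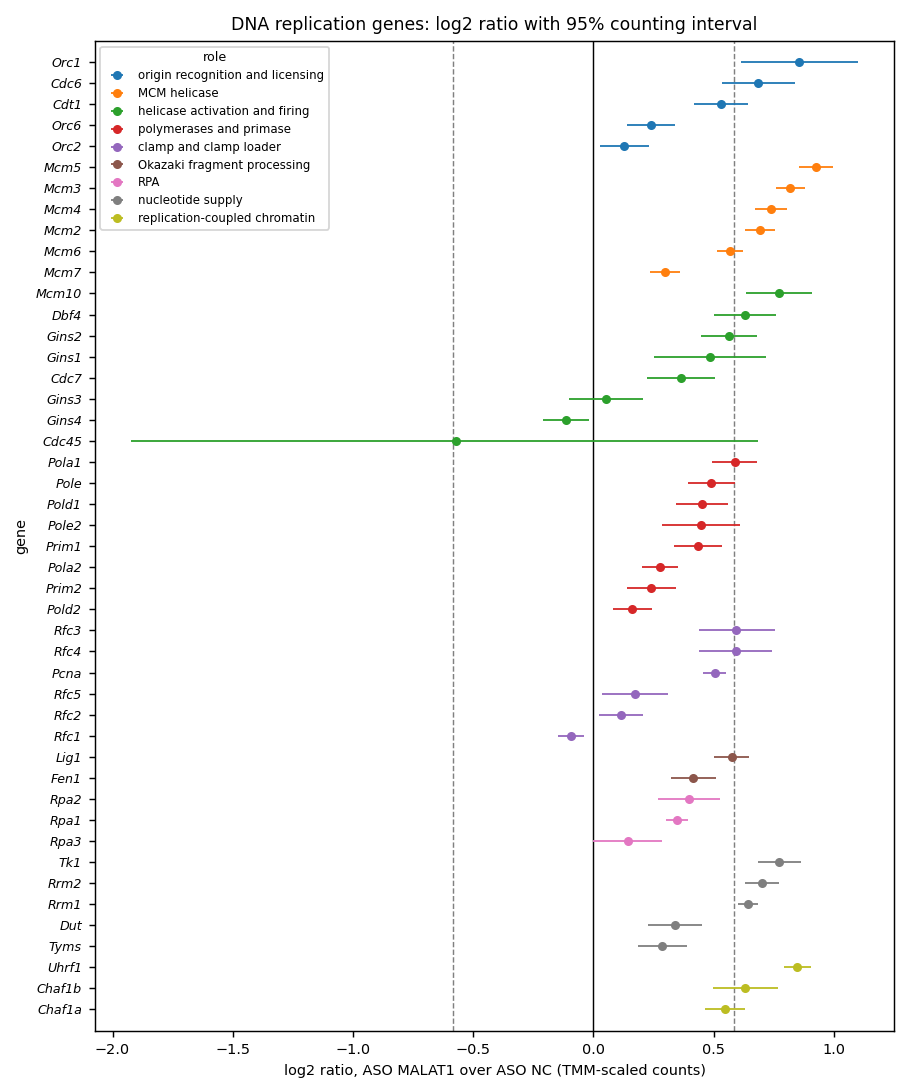
Log2 ratio of each replication gene (x axis, ASO MALAT1 library over NC library), with its 95% counting interval as a bar, grouped by role in colour. The solid line marks no difference and the dashed lines a 1.5-fold difference, and 16 of 46 points lie at or beyond the right dashed line while Gins4, Rfc1 and Cdc45 lie left of 0.

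The promoters of these genes were read from RefSeq windows on GRCm38.p6 that run from 250 bases before to 50 bases after the transcription start. Of the 46 members 39 had a window, and 8 further windows came from alternative starts, giving 47 in all. An E2F-type core was searched as the letters TTCCCGC, as the letters TTCGCGC, as the letters TTGCCGC and as the letters TTGGCGC on either strand, and overlapping matches were kept. It was present in 29 of 47 member windows (61.7%), in 9.57% of all 32851 windows and in 15.0% of the windows of genes tested here. Member windows were richer in G and C (59.2% on average, against 53.8% over all windows). Among windows with at least 60% G and C, the core was found in 17 of 25 member windows (68.0%) and in 19.9% of all. The CCAAT box was found in 57.4% of member windows and 37.4% of all windows, and the CHR element of mitotic genes (the letters TTTGAA, or else the letters TTCGAA) in 21.3% and 19.2%. In the windows of genes tested the shares were 37.6% for the CCAAT box and 14.7% for the CHR.

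The sequences below are the 170 bases before the RefSeq start on GRCm38.p6, 5′ to 3′ on the gene's strand. They are shown for Mcm5, Orc1 and Uhrf1, which had a core and the highest log2 ratio of their roles, for Rrm1, which had a core and the most counts of the members, for Mcm6, which has 4 cores there, for Gins3, which has a core but hardly differed between the libraries, and for Tk1, which was higher without one. Capitals mark E2F cores, which overlap in Mcm5 and Mcm6. They were chosen after the values were seen, and a match is a description of letters, not a site shown to be bound.
Mcm5, chr8:75109339-75109508, plus strand: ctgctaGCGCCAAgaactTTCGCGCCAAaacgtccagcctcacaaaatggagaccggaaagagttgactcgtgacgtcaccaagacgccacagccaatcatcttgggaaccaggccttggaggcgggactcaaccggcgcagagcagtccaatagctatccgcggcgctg
Orc1, chr4:108579284-108579453, plus strand: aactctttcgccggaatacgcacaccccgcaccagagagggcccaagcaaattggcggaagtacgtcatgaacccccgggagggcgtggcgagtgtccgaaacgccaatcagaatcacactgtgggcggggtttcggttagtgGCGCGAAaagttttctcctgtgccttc
Uhrf1, chr17:56303167-56303336, plus strand: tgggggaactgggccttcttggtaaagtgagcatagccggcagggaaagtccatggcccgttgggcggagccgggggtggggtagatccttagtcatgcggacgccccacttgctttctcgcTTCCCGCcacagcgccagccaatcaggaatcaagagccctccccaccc
Rrm1, chr7:102441525-102441694, plus strand: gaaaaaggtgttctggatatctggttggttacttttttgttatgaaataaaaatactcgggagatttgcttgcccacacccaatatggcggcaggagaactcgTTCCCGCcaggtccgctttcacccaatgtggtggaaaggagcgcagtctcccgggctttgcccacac
Mcm6, chr1:128359706-128359875, minus strand: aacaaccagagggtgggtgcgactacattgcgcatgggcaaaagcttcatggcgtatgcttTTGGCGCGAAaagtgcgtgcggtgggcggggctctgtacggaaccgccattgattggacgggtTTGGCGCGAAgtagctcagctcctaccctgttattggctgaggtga
Gins3, chr8:95633389-95633558, plus strand: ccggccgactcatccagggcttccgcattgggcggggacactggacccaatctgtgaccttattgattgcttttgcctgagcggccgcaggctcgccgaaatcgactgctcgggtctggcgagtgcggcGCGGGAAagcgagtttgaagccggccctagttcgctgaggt
Tk1, chr11:117826015-117826184, minus strand: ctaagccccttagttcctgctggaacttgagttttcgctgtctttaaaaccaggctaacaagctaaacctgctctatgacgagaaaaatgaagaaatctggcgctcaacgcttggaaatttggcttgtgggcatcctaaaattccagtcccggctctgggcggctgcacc

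The 25 members with a core in at least 1 window had a median log2 ratio of 0.57, and 11 of them were at least 1.5-fold higher. The 14 members with a window but no core had a median of 0.31, and 4 were at least 1.5-fold higher. Over all genes tested 8.28% were at least 1.5-fold higher, and 2.28% of those with at least 100 counts in each library. The ranges overlapped, from -0.09 (Rfc1) to 0.93 (Mcm5) with a core and from -0.57 (Cdc45) to 0.77 (Tk1) without, where the lower end rested on the few counts of Cdc45. This is a description across genes of 2 libraries.

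Origins are recognised by the origin recognition complex (ORC), and the helicase is then loaded by Cdc6 and Cdt1, a step called licensing. Within this group the loading factors and Orc1 differed most between the libraries, and the other ORC subunits differed less. Orc1, the ORC subunit whose level changes with the cycle, was counted 214 times in the NC library and 417 times in the ASO MALAT1 library, a log2 ratio of 0.85 (0.61 to 1.10). In the sentences that follow, the NC count comes first. Cdc6, the ATPase that recruits the helicase to ORC, had 564 and 977 counts, a log2 ratio of 0.69 (0.54 to 0.84). For Cdt1, which escorts the helicase to the origin and is destroyed in S phase, the counts were 1080 and 1678 and the log2 ratio 0.53 (0.42 to 0.64). Orc6 and Orc2 were the smallest of this group, with log2 ratios of 0.24 and 0.13 on 1463 and 1483 control counts, so they were not less precisely counted than Orc1. Both overlap a gene on the opposite strand (Vps35 and Nif3l1), and the counting was not stated to use strand. In all, 9 members overlap such a protein-coding gene with at least 100 control counts, and their log2 ratios ran from 0.13 (Orc2) to 0.77 (Tk1).

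Mcm2 to Mcm7 form the ring of the replicative helicase, one copy of each subunit per ring, and they were the role with the highest median log2 ratio (0.72). All 6 were higher in knockdown cells and 4 were at least 1.5-fold higher, against 49.6% and 8.28% of all genes tested. Mcm5 stood highest of all 46 members, with 2399 and 4906 counts, which is 1.90-fold higher (1.81 to 2.00). Mcm3 followed at 3444 and 6541 counts (log2 ratio 0.82), then Mcm4 at 2869 and 5157 (0.74), Mcm2 at 3170 and 5515 (0.69) and Mcm6 at 4325 and 6902 (0.57). Mcm7 was the exception among them. It had 3698 and 4890 counts, a log2 ratio of 0.30 (0.23 to 0.36), whose interval lies below those of the other 5 subunits. The Mcm7 gene (GRCm38 chr5:138164583-138172422, minus strand) overlaps Cops6 and Ap4m1 on the opposite strand, which had 3706 and 2734 counts in control cells.

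Per kilobase of coding sequence the helicase subunits were closer to each other in knockdown cells than in control cells. Control levels ran from 18.9 CPM per coding kb for Mcm5 to 30.4 for Mcm6, a 1.61-fold spread. Knockdown levels ran from 32.1 for Mcm4 to 45.1 for Mcm6, a 1.41-fold spread. Mcm5 was the lowest subunit in control cells but not in knockdown cells, where it was at 35.9. Divided by the length of the whole transcript the spreads were larger, 2.09-fold and 1.65-fold, with the same highest and lowest subunits in each library.

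The loaded helicase is switched on by the kinase Cdc7 with its activator Dbf4, by Mcm10, and by the binding of Cdc45 and the GINS complex (Gins1 to Gins4). This role was the most divided, with log2 ratios from -0.57 to 0.77. Mcm10 had 659 and 1211 counts (log2 ratio 0.77, interval 0.63 to 0.91), and Dbf4 had 780 and 1300 counts (0.63, interval 0.50 to 0.76). Cdc7, whose level is steadier through the cycle than that of its activator, had 719 and 996 counts (0.36, interval 0.22 to 0.50). GINS is built from equal numbers of its 4 subunits, but their transcripts differed in pattern. Gins2 had 969 and 1543 counts (log2 ratio 0.56) and Gins1 had 255 and 384 (0.48). Gins3 had 665 and 742 counts, a log2 ratio of 0.05 (-0.10 to 0.20), and Gins4 had 1774 and 1766 counts, a log2 ratio of -0.11 (-0.21 to -0.02). Gins4 was the highest GINS subunit per coding kb in control cells, 6.11-fold above Gins1, the lowest, while Gins2 was the highest in knockdown cells (44.7 CPM per coding kb, against 42.5 for Gins4). Per kb of transcript Gins4 was the highest in both libraries.

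Cdc45 stood apart through its depth. Its 14 (NC) and 10 (ASO MALAT1) counts are 0.243 and 0.161 CPM, and its log2 ratio of -0.57 had an interval from -1.92 to 0.68, so no difference was detectable at this depth. The gene lies at GRCm38 chr16:18780447-18811987 (minus strand) among genes of the DiGeorge region that were also at few counts. Of the 38 other protein-coding genes within 1000 kb whose symbol was in the count table, 32 had under 50 counts in both libraries. Without the 8 olfactory receptor genes there the number was 24 of 30. Over all protein-coding genes 44.6% were that low. Well-counted members also lay among such genes, with 63 of 79 neighbours that low for Rrm1 (12 of 28 without olfactory receptor genes) and 62 of 86 for Cdc6 (30 of the 86 being keratin genes). Among these neighbours are genes that most cells use, such as Ranbp1 (4 and 7 counts), Dgcr8 (25 and 27) and Hira (12 and 19), named here after their values were seen. Of the neighbours with over 50 counts in a library, those that differed most, also named afterwards, were Tango2 (13 and 223 counts) and Dgcr2 (53 and 395). Why the stretch is low was not tested. Without Cdc45 the number of members at least 1.5-fold higher was 16 of 45, and their median log2 ratio was 0.49.

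**Figure D2:**
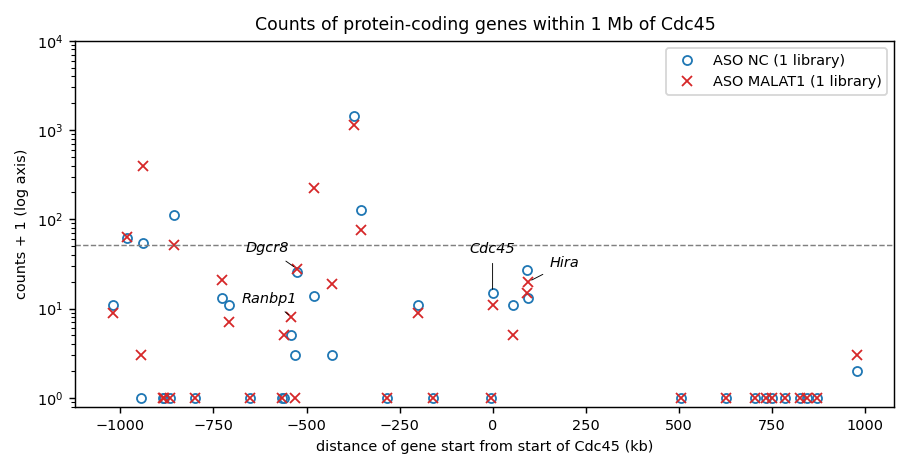
Counts plus 1 (log y axis) of protein-coding genes found in the count table, by the distance of their start from that of Cdc45 (x axis, kb), with a circle for the NC library and a cross for the ASO MALAT1 library. The dashed line marks 50 counts, and 32 of 38 neighbours lie under it in both libraries.

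DNA polymerase alpha with primase (Pola1, Pola2, Prim1, Prim2) starts each new strand, polymerase epsilon (Pole, Pole2) extends the leading strand and polymerase delta (Pold1, Pold2) the lagging strand. All 8 were higher in the knockdown library (49.6% of all genes tested), each with an interval above 0 (26.7%). Only Pola1 passed 1.5-fold (8.28% of all genes tested), with 1480 and 2394 counts (log2 ratio 0.59, interval 0.49 to 0.68). In the polymerase alpha and delta enzymes the catalytic subunit differed more than its partner among the members: Pola1 at 0.59 against Pola2 at 0.28, and Pold1 at 0.45 against Pold2 at 0.16. The delta subunits outside the members were Pold3, at 0.27 (1580 and 2057 counts), and Pold4, which lay above Pold1 at 1.91 but on only 8 and 34 counts. The primase subunits gave log2 ratios of 0.44 for the catalytic Prim1 and 0.24 for Prim2. Pole and Pole2 were alike, at 0.49 (1453 and 2198 counts) and 0.45 (521 and 765 counts), and their intervals overlapped.

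The sliding clamp Pcna tethers polymerases to DNA and is loaded by replication factor C (Rfc1 to Rfc5). Pcna was the most abundant member per coding kb in both libraries, at 132 and 188 CPM per coding kb. It had 5971 and 9123 counts, a log2 ratio of 0.50 (0.46 to 0.55). Its processed copy Pcna-ps2, which is 99.2% identical to the Pcna transcript over 781 bases, had 1094 and 1657 counts, and adding these to Pcna left the log2 ratio at 0.50. The loader subunits fell into unlike pairs. Rfc3 (532 and 865 counts) and Rfc4 (572 and 928 counts) each had a log2 ratio of 0.59, whereas Rfc5 was at 0.17 and Rfc2 at 0.11. Rfc1, the large subunit that opens the clamp, had 5754 and 5806 counts and was slightly lower after scaling, at -0.09 (-0.15 to -0.04). Rfc4 overlaps the more abundant Eif4a2 on the opposite strand, which had 27548 and 27563 counts.

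Okazaki fragments are trimmed by the flap endonuclease Fen1 and sealed by the ligase Lig1, and both were higher in knockdown cells. Lig1 had 2402 and 3852 counts (log2 ratio 0.57, interval 0.50 to 0.65), and Fen1 had 1557 and 2235 counts (0.41, interval 0.32 to 0.51). Replication protein A coats the unwound single strands and also serves in repair. Its median log2 ratio was 0.35. Rpa2 had a log2 ratio of 0.40 (843 and 1196 counts) and Rpa1 of 0.35 (6850 and 9386 counts), while the interval of Rpa3, at 0.14, just held 0 (730 and 868 counts).

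Deoxynucleotide supply was the role with the second highest median log2 ratio (0.64). Of its 5 genes, 3 were at least 1.5-fold higher, against 8.28% of all genes tested. Tk1, the thymidine kinase of S phase, had 1585 and 2916 counts, a log2 ratio of 0.77 (0.68 to 0.86). The subunits of ribonucleotide reductase, which makes deoxynucleotides from ribonucleotides, were close to each other. Rrm2, the subunit limited to S phase, had 2514 and 4404 counts (0.70, interval 0.63 to 0.77), and Rrm1 had 7738 and 13005 counts (0.64, interval 0.60 to 0.68). Dut, which removes dUTP, and Tyms, which makes dTMP, differed less, at 0.34 (1115 and 1520 counts) and 0.29 (1391 and 1826 counts).

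Of the factors that restore chromatin behind the fork, Uhrf1 brings the maintenance DNA methyltransferase to newly copied DNA, and Chaf1a and Chaf1b are the large and middle subunits of the histone chaperone CAF-1. Uhrf1 had 3891 and 7536 counts, a log2 ratio of 0.85 (0.79 to 0.90), the third highest of the members after Mcm5 and Orc1. Chaf1b had 702 and 1171 counts (0.63) and Chaf1a had 2008 and 3159 counts (0.55), and their intervals overlapped.

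**Figure D3:**
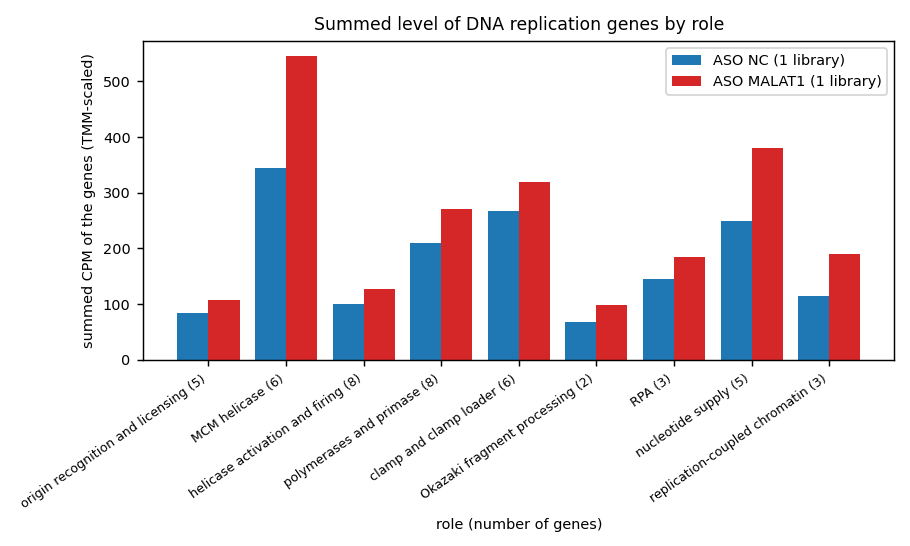
Summed level of the members of each role (y axis, CPM from 0) in the NC library (blue) and the ASO MALAT1 library (red), 1 library each and so without error bars. The helicase went from 345 to 546 CPM and nucleotide supply from 249 to 381 CPM, and the sum was higher in the knockdown library for each role.

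Levels per coding length covered a wide range among the members. The median was 19.1 CPM per coding kb in control cells and 26.7 in knockdown cells. In control cells Pcna was followed by Rpa1 (61.4 and 78.2) and Rrm1 (56.4 and 88.1), and the lowest member besides Cdc45 was Orc1, at 1.47 and 2.66. The catalytic polymerase subunits Pole (3.68 and 5.17) and Pola1 (5.84 and 8.77) were near the lower end too. High and low members were found on both sides of the 1.5-fold limit.

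**Figure D4:**
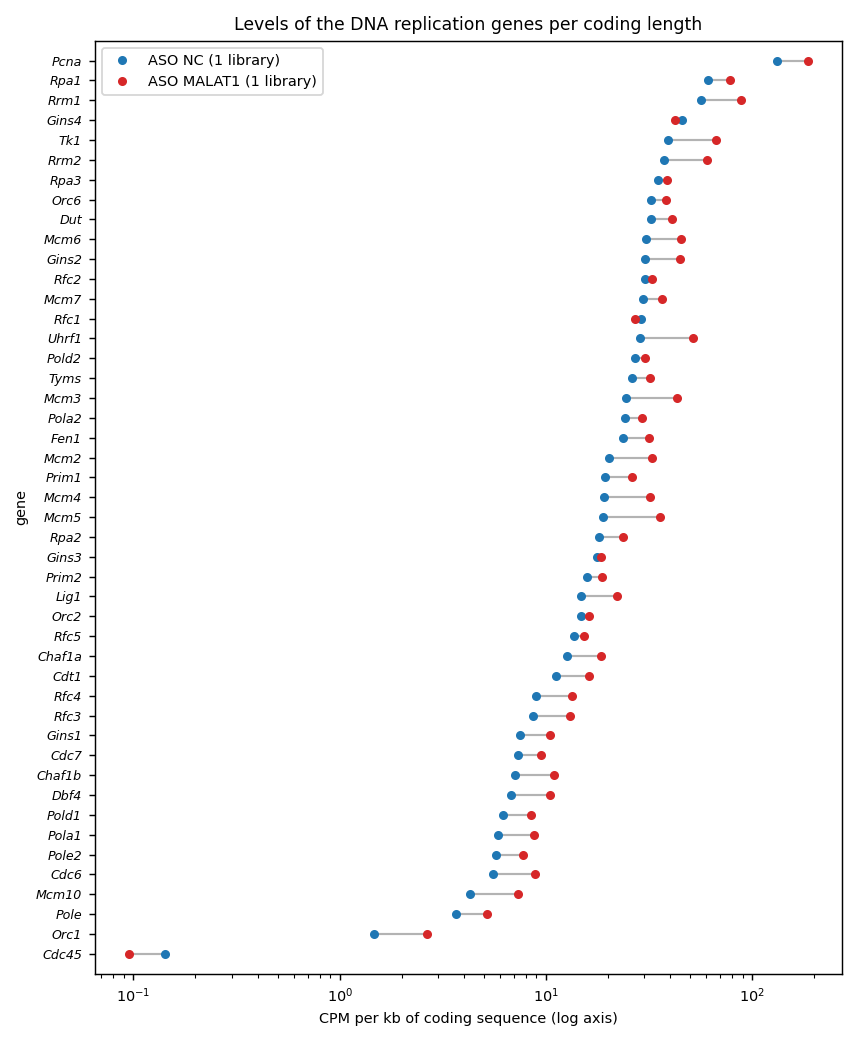
CPM per kb of coding sequence (log x axis) of each member in the NC library (blue) and the ASO MALAT1 library (red), in order of the control level. Pcna is at the top at 132 and 188, and only Gins4, Rfc1 and Cdc45 have the red point left of the blue one.

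Other genes of the pathway, listed by their function, had positive median log2 ratios that were smaller than that of the members. Of 32 further replisome and origin factors, all tested, 27 were higher in the knockdown library, 8 were at least 1.5-fold higher and 1 was at least 1.5-fold lower, with a median log2 ratio of 0.31. Over all genes tested these shares were 49.6%, 8.28% and 11.9%, and they stand beside each of the list counts that follow. Dscc1, a subunit of the alternative clamp loader, had 143 and 287 counts (log2 ratio 0.90), Dna2, a nuclease of Okazaki fragments, 253 and 468 (0.78), and Clspn, a fork checkpoint adaptor, 865 and 1503 (0.69). The remaining factors at least 1.5-fold higher were Wdhd1, Ticrr, Atad5, Chtf18 and Pold4, and Pold4 rested on 8 and 34 counts. Pole4, a histone-fold subunit of polymerase epsilon, was the lower one, with 4741 and 3361 counts (-0.60, interval -0.67 to -0.54). The ORC subunits outside the members were near 0, at -0.07 for Orc3, 0.02 for Orc4 and -0.17 for Orc5.

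Further chromatin inheritance factors were higher in 10 of 10 cases with a median log2 ratio of 0.42, and Asf1b, a histone chaperone of proliferating cells, passed 1.5-fold with 1054 and 1712 counts (0.59), whereas Rbbp4, a CAF-1 subunit shared with other complexes, was lowest at 0.09. Of 12 further nucleotide enzymes 7 were higher, a share near the 49.6% over all genes tested, and 0 passed 1.5-fold in either direction, with a median of 0.12, and Shmt2, a mitochondrial enzyme of folate metabolism, was the lowest at -0.20. Polymerases of repair and of mitochondria were centred on 0, with a median of 0.03 over 11 genes. Polq, which joins broken ends, was the highest of them at 0.62 (740 and 1225 counts) and Polg2 the lowest at -0.35.

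Mitotic genes had a higher median than the replication genes. Their median log2 ratio was 0.68 over 20 genes, all 20 were higher in the knockdown library and 17 were at least 1.5-fold higher (8.28% of all genes tested), with a range from 0.46 (Top2a) to 0.87 (Bub1). The replication genes had a wider range and a lower median (0.49), and the difference between these lists was not tested, since there was 1 library per group.

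**Figure D5:**
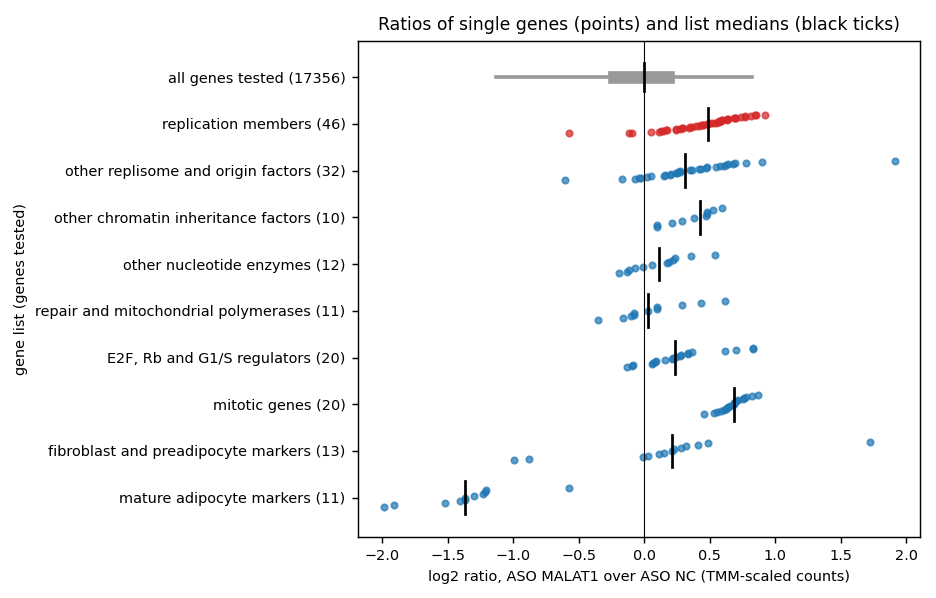
Log2 ratios of single genes (points) in the replication genes (red) and in comparison lists (blue), with list medians as black ticks and the number of genes tested in brackets. For all genes tested the thick grey bar spans the quartiles and the thin one the 5th to 95th percentiles. The replication members centre on 0.49, between the mitotic genes at 0.68 and the further chromatin inheritance factors at 0.42. The further replisome factors centre on 0.31.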

How the data were processed

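RNA-seq libraries had been made from rRNA-depleted total RNA with a directional kit, 1 per group. The authors deposited whole-number read counts per gene symbol, without normalization. HISAT2 and GRCm38 are named in the submitters' processing notes. The counting tool, annotation, strand setting and treatment of duplicate and multiply mapped reads are not given in the sources used here.

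Each column was assigned by its title. Counts were scaled with TMM factors (0.992 for NC, 1.01 for ASO MALAT1; edgeR 4.0.16, R 4.3.3) over genes with at least 10 summed counts. Log2 ratios used a prior count of 0.5, and intervals are exact Clopper-Pearson limits (scipy 1.17.1). With 1 library per group, the quasi-likelihood test and DESeq2's test could not be fitted, so a gene was called at 1.5-fold. The code was tested on simulated data. A count of 0 allows up to 3 counts (0.0520 and 0.0483 CPM).

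Positions, coding lengths and overlaps came from GENCODE M21 (GRCm38), near-identical copies from BLAST+ 2.17.0 (at least 95% identity over 200 bases), and promoters from RefSeq (GRCm38.p6). Of the members, 9 overlap a protein-coding gene on the opposite strand that had at least 100 control counts (Chaf1a, Fen1, Gins2, Mcm7, Orc2, Orc6, Rfc4, Rfc5 and Tk1). The members and lists were chosen with earlier results of these data known. Named genes were all members, Malat1, and of each list those past 1.5-fold and the extremes (1 extreme is not reported here), and others are said to be chosen later or complete a group. Alternatives were other scalings, filters, prior counts and folds, and, chosen after seeing the data, leaving out Cdc45, adding Pcna-ps2 to Pcna and transcript length. The planned protein motif search was not run, because protein sequences were not used here.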

Additional observations from a re-analysis of the deposited data

How the results depend on the processing

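With upper-quartile factors, with size factors from DESeq2 1.42.0, with scaling by library totals, a prior count of 2, or other filters on low counts, the members' median and the role medians moved by less than counting error. The number of members at least 1.5-fold higher was 19 with library totals, where Lig1, Mcm6 and Gins2 passed the limit, against 8.63% of all genes tested. It was 14 of 45 with at least 100 counts in each library, against 2.13% of the genes kept, with factors fitted on these. In the other settings just named it was 16, against 7.58% to 16.6% of genes. Malat1 moved from -2.01 to -1.99 with library totals. Scaling on the sum of 11 reference genes, of which Actb and B2m made 76.1% of that sum in control cells, lowered the median of all genes by 0.13 and every member with it: 7 members were then at least 1.5-fold higher and 1 (Cdc45) at least 1.5-fold lower, the members' median was 0.35, and Malat1 was at -2.15. The role medians became 0.40 for origin licensing, 0.58 for the helicase, 0.29 for helicase activation, 0.31 for polymerases, 0.21 for the clamp and its loader, 0.36 for Okazaki fragment processing, 0.22 for RPA, 0.51 for nucleotide supply and 0.50 for chromatin factors, so that those of the helicase, nucleotide supply and chromatin factors came to lie under 1.5-fold, the helicase just under it. A limit of 0.32 on the log2 ratio gave 32 members higher and 1 lower, and a 2-fold limit 0 higher. Asking for the lower bound of the interval to pass 1.5-fold gave 10. No share over all genes is given here for that rule, so this count cannot show whether the members differ from other genes. In only the 100 bases before the start, the E2F core was in 25.5% of member windows, against 3.73% of all and 5.78% of those of genes tested. The CHR was there in 2 of 47 member windows (4.26%), against 6.13% of all, the opposite order to that in the whole window. Beside the windows of genes tested the order did not change. These held the CHR in 3.94% of cases in the 100 bases, and in 14.7% in the whole window, against 21.3% of member windows. No paired analysis was possible because each group had 1 library. Depth limits Cdc45, and the lack of replicates limits every comparison.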

Other observations

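The regulators of the G1 to S transition differed among themselves. Of 20 genes, 17 were higher in the knockdown library and 4 were at least 1.5-fold higher, against 49.6% and 8.28% of all genes tested, with a median log2 ratio of 0.23. These 4 were E2f7 (479 and 920 counts, 0.83) and E2f8 (723 and 1382 counts, 0.83), which are atypical E2F repressors and themselves E2F targets, Ccna2, the cyclin of S phase and G2 (2314 and 4052 counts, 0.70), and Mybl2, a transcription factor of cycling cells (597 and 987 counts, 0.62). The activator E2f1 had 3049 and 3887 counts, a log2 ratio of 0.24, and Cdkn1a, a Cdk inhibitor, was the lowest of the list with 16235 and 15975 counts (-0.13, interval -0.16 to -0.10). E2f1 falls outside the naming rule and was chosen after its value was seen.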
